A study of Mus musculus with 23 samples.

Results

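Of the genes that encode parts of the inflammasome, 10 were followed in mouse macrophages: the sensors Nlrp3, Nlrc4, Naip2, Naip5 and Aim2, the NLRP3 partner Nek7, the adaptor Pycard, the caspases Casp1 and Casp4 and the pore protein Gsdmd. They were taken by gene symbol, and all 10 of the 10 named genes were measured, each by 1 probe set that carried no other symbol, among 19938 genes tested. The macrophages were grown out of bone marrow from wild-type C57BL/6 mice with M-CSF and treated after its removal, and RNA was measured on 23 single-channel arrays. Cells received 250 µM stearic acid (SA), a saturated fatty acid, over 20 h (n = 4) or 5 h (n = 4). Other cells received 250 µM oleic acid (OA), which is as long as SA but carries a double bond, over 20 h (n = 4) or 5 h (n = 4). Lipopolysaccharide (LPS), the bacterial ligand of TLR4, was used at 1 ng/mL over 5 h (n = 4). The vehicle was 125 µM fatty acid-free albumin of bovine serum (BSA) over 5 h (n = 3), and the fatty acids were bound to the same protein. The sample labels list an albumin dose for the vehicle arrays alone and none for LPS. The part of albumin in the comparisons with LPS was not tested. The sample labels give 5 h for LPS and vehicle, whereas the series text gives 4 h. Were it 4 h, comparisons of the 5 h fatty acids with LPS or vehicle would combine treatment and time. There is no 20 h vehicle among the groups, so any comparison of 20 h with vehicle combines treatment and time in either case.

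Inflammasomes are complexes that form in the cytosol when a sensor protein meets a danger signal. The sensor recruits caspase-1, in many cases through the adaptor ASC (encoded by Pycard), and caspase-1 then cuts the precursors of interleukin-1 beta and interleukin-18 and the pore protein gasdermin D. In macrophages, transcription of sensor and cytokine genes is commonly a first step, called priming, and assembly of the complex a second one. The arrays measured RNA, so they bear on the first step alone, and neither assembly nor cleavage was measured.

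All 10 measured macrophage markers, among them Csf1r, Lyz2 and Adgre1, lay above the median of all gene values (4.25 on the log2 scale). Their mean ranged between 8.98 and 9.93 over the arrays, and it was lowest with 20 h SA, at 9.06, against 9.90 with 20 h OA. Markers of dendritic, lymphoid, mast, stromal and erythroid cells had array means of 2.16 to 4.19. Of 10 neutrophil markers, S100a8 was highest (11.39 on average) and Ly6g lowest (2.78 on average). Neutrophil markers had array means of 5.80 to 6.75, and 7 of the 10 lay above the median of all gene values. Their group means were 6.57 with 20 h SA and 6.65 with 20 h OA, 6.09 with 5 h SA and 6.32 with 5 h OA, and 6.53 with LPS, against 6.38 with vehicle. The part of other cells in the results below was not tested, and in bulk RNA fewer cells of a type and less RNA per cell cannot be told apart. Array medians lay between 3.98 and 4.12. Replicate 2 was the most distant of the 20 h SA arrays: gene deviations from the group means had an SD of 0.215 on it, against 0.153 to 0.161 on the other 3, and calls that change without it, and differences between the acids at 20 h that move by over 1.5 times, are given both ways.

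LPS moved most of the genes. Against vehicle, 6 of the 10 rose (Nlrp3, Casp4, Aim2, Gsdmd, Casp1 and Naip2), Pycard fell, and Nlrc4, Naip5 and Nek7 did not pass the test. A gene was called at a Benjamini-Hochberg adjusted p under 0.05 in limma over all genes, which 22.4% of all genes reached in this comparison (9.22% rose and 13.2% fell). By mean level over the 23 arrays, the 10 genes lay above 61.8% (Nlrc4) to 96.1% (Casp1) of all genes. The shares over all genes given here and below thus include many dimmer genes. The median log2 difference of the 10 genes was 0.48, against -0.02 over all genes. SA at 5 h moved 3 of them against the same vehicle, with Nlrp3 and Casp4 risen and Pycard fallen, where 3.33% of all genes were called (1.94% rose and 1.39% fell). OA at 5 h gave no call in limma among the 10, with 2 at an unadjusted p under 0.05 (Casp1 and Casp4, both lower with OA), where 0.0702% of all genes were called (0.0201% rose and 0.0502% fell). These comparisons share the vehicle arrays. Set directly against LPS at 5 h, SA gave lower values for 6 of the 10 genes (Nlrp3, Casp4, Aim2, Gsdmd, Casp1 and Naip5) and higher values for none, where 22.1% of all genes were called (13.0% rose and 9.11% fell). Naip5 was borderline there (-0.29, adjusted p = 0.0441) and was lost without any of 7 of the 8 arrays (adjusted p of up to 0.124, without replicate 3 of LPS), and Naip2 lay just outside the threshold (-0.20, adjusted p = 0.0511). Naip2 was called lower under 6 of 18 alternatives, with adjusted p down to 0.0205 with arrays centred on their median, and over all 18 its adjusted p reached 0.344.

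The 2 fatty acids were compared at the same dose and time. At 5 h, Nlrp3 and Casp4 were higher with SA than with OA and Pycard and Naip5 were lower, 4 of 10 genes, where 5.67% of all genes were called (3.30% rose and 2.37% fell). At 20 h, Casp4 and Naip2 were higher with SA and Nlrc4, Pycard, Nlrp3 and Nek7 were lower, 6 of 10 genes, where 16.7% of all genes were called (7.72% rose and 8.95% fell). Without replicate 2 of 20 h SA, 6 of the 10 were called at 20 h as well, with Aim2 called (adjusted p = 0.0426) and Nek7 not (adjusted p = 0.114). Without replicate 2 of 20 h OA 4 were called, and Nlrp3 (adjusted p = 0.0539) and Nek7 (adjusted p = 0.146) were not. The median log2 difference of the 10 genes was -0.04 at 5 h and -0.24 at 20 h, against 0.01 and 0.03 over all genes. The change of the difference between the times passed the test for 1 of the 10, Nlrp3, where 4.98% of all genes were called (1.58% rose and 3.40% fell).

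**Figure D1:**
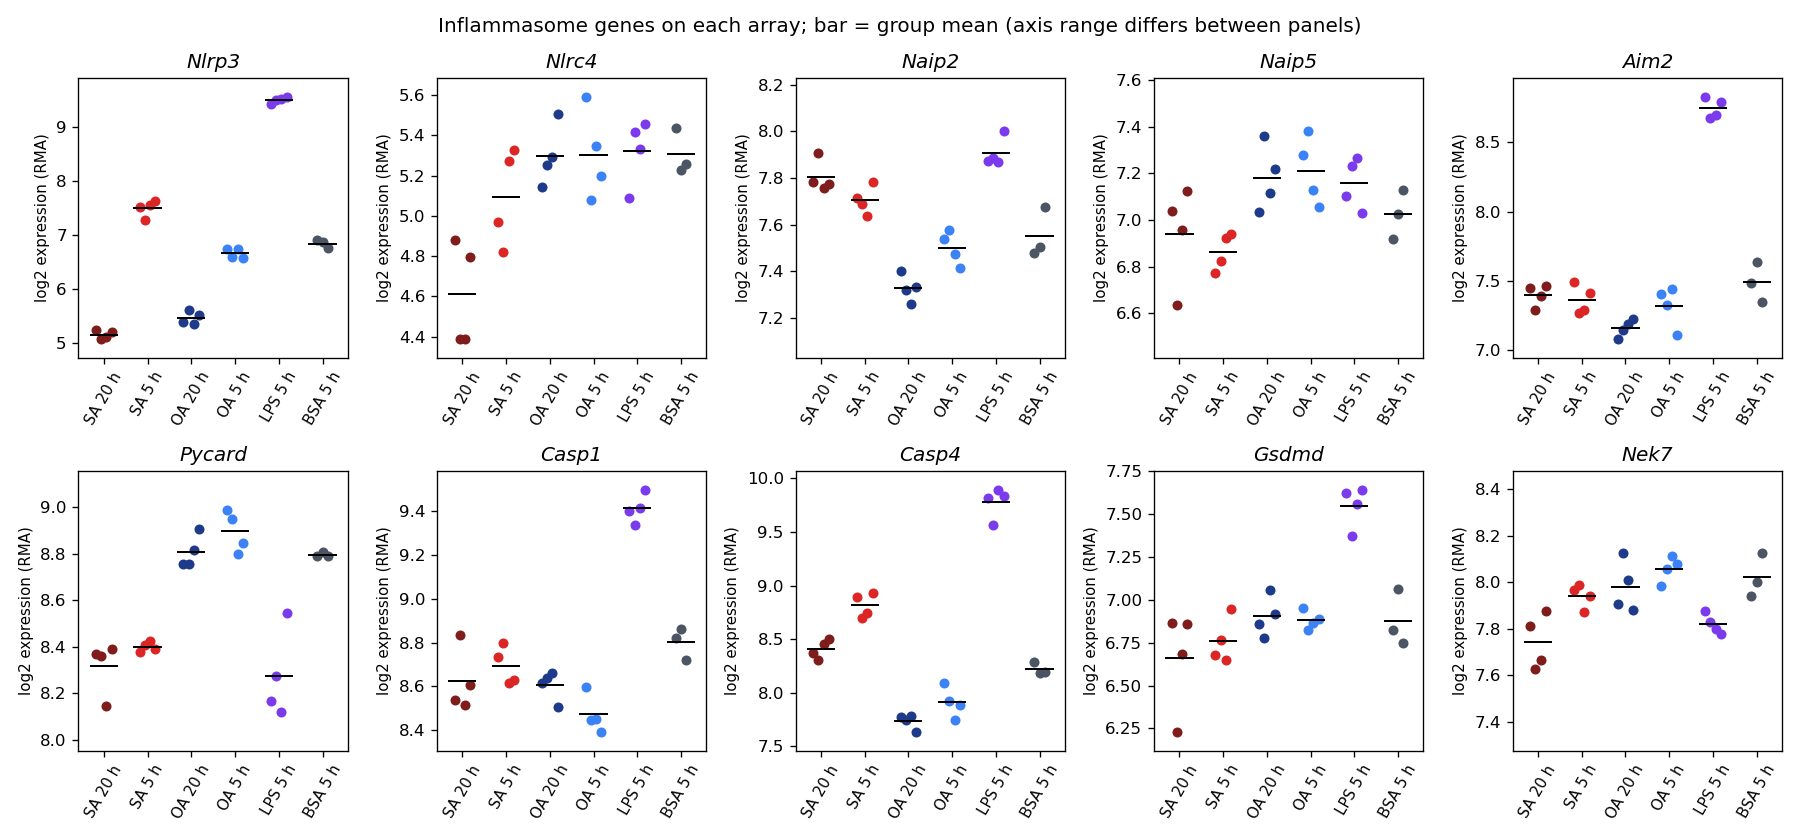
Log2 expression (vertical axis, range differs between panels) of each of the 10 inflammasome genes on every array, by group (horizontal axis); each point is an array and each bar a group mean. The 4 LPS arrays lie above all other arrays for Nlrp3, Aim2, Casp1, Casp4 and Gsdmd, and for Pycard the SA and LPS arrays lie below the OA and vehicle arrays.

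Nlrp3 encodes the sensor that responds to ion fluxes and membrane damage, and its transcript is known to be scarce in resting macrophages and induced through NF-kB. It had the widest span of the 10 genes, with group means 4.35 apart on the log2 scale. On the 20 h SA arrays it stood at 5.25, 5.07, 5.11 and 5.20, and on the 20 h OA arrays at 5.39, 5.62, 5.35 and 5.53. On the 5 h SA arrays it stood at 7.53, 7.28, 7.56 and 7.63, and on the 5 h OA arrays at 6.74, 6.59, 6.74 and 6.58. The LPS arrays gave 9.44, 9.50, 9.52 and 9.57, against 6.90, 6.88 and 6.76 on the vehicle arrays. From high to low the groups ran LPS, 5 h SA, vehicle, 5 h OA, 20 h OA and 20 h SA, and no 2 neighbours in that order overlapped.

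Nlrp3 rose 6.33-fold with LPS against vehicle, a log2 difference of 2.66 ± 0.09 (SE, adjusted p = 6.02e-17). With 5 h SA it rose by 0.66 ± 0.09 (SE, adjusted p = 5.58e-05) against vehicle and lay 4.01-fold below LPS (-2.00 ± 0.09, SE, adjusted p = 2.44e-15). With 5 h OA the difference from vehicle was -0.18 (95% interval -0.37 to 0.01, adjusted p = 0.894). SA was 1.79-fold above OA at 5 h (0.84 ± 0.09, SE, adjusted p = 2.41e-07) and 1.24-fold below OA at 20 h (-0.31 ± 0.09, SE, adjusted p = 0.0109). The sign of the SA effect relative to OA thus differed between the times, and the change, 20 h minus 5 h, was -1.15 ± 0.12 (SE, adjusted p = 4.77e-07). That test concerns the size of the change. The 20 h difference itself was -0.26 and not called without replicate 2 of 20 h OA (adjusted p = 0.0539).

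Both acids had lower Nlrp3 at the later time. The fall was -2.35 ± 0.09 (SE, adjusted p = 1.08e-15) with SA, 5.08-fold, where 12.8% of all genes were called in that comparison (6.23% rose and 6.57% fell). With OA it was -1.19 ± 0.09 (SE, adjusted p = 9.85e-10), 2.29-fold, where 4.38% of all genes were called (2.58% rose and 1.80% fell). With SA, Nlrc4 and Casp4 were also called lower at the later time, 3 of the 10 genes, and with OA Nlrp3 alone was called. Relative to the vehicle of the earlier time, the difference was -1.69 with 20 h SA and -1.38 with 20 h OA.

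The 250 bases before one of the 2 RefSeq starts of Nlrp3 are shown because the gene is known as an NF-kB target and held 1 match to the kappaB-type motif (GGG, any 5 bases, then CC) on either strand, set in capitals. The window is GRCm38.p6 chr11:59541319-59541568, plus strand, 5′ to 3′, and the match begins 186 bases before the start; the window of the other start held none.
Nlrp3: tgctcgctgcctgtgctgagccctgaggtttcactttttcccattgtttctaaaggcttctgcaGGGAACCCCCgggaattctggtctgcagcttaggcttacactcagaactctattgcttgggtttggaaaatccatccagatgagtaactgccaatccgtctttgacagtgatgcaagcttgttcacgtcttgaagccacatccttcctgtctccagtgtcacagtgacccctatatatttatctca
The motif is loose: it was found in 45.8% of 32851 RefSeq promoter windows of the same length. A match describes letters and is no evidence of binding.

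Nek7 encodes a kinase that binds NLRP3 and is needed for its assembly in mouse macrophages. Its group means lay within 0.31 of each other, and every pair of neighbours in the order of levels overlapped. It stood at 7.81, 7.63, 7.67 and 7.87 with 20 h SA, against 7.91, 8.12, 8.01 and 7.88 with 20 h OA. The difference was -0.24 ± 0.08 (SE, adjusted p = 0.0371), the smallest of the called differences at 20 h, and the highest SA array (7.87) lay just below the lowest OA array (7.88). The call was lost in a fit of the compared groups alone (adjusted p = 0.134), with each array centred on its median (adjusted p = 0.0798) and without replicate 2 or 3 of 20 h OA (adjusted p = 0.146 and 0.0887) or of 20 h SA (adjusted p = 0.114 and 0.112). With LPS it stood at 7.88, 7.83, 7.80 and 7.78, against 7.94, 8.0 and 8.13 with vehicle, which do not overlap, and the difference of -0.20 did not pass (adjusted p = 0.0921). Under quantile normalisation that difference was -0.28 (adjusted p = 0.0111).

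Aim2 encodes the sensor of DNA in the cytosol, and in mouse macrophages it is known as an interferon-inducible gene. It stood at 8.83, 8.68, 8.70 and 8.79 on the LPS arrays, against 7.49, 7.63 and 7.35 on the vehicle arrays. The rise was 1.26 ± 0.09 (SE, adjusted p = 1.01e-10), 2.40-fold. All other groups overlapped their neighbours in the order of levels. With 5 h SA the values were 7.49, 7.26, 7.29 and 7.41, and with 5 h OA 7.40, 7.33, 7.44 and 7.11. SA at 5 h thus lay 1.39 ± 0.09 (SE) below LPS on the log2 scale (adjusted p = 3.78e-12) and did not pass against vehicle (-0.12, 95% interval -0.32 to 0.07). With 20 h SA the values were 7.45, 7.29, 7.39 and 7.46, against 7.08, 7.14, 7.19 and 7.22 with 20 h OA. These groups did not overlap, and the difference of 0.24 (95% interval 0.06 to 0.42) had an adjusted p of 0.062. It was called under 5 of 18 alternatives: a variance trend (adjusted p = 0.0276), quantile normalisation (adjusted p = 0.0314), array weights (adjusted p = 0.0226), leaving out the dimmest genes (adjusted p = 0.0402) and leaving out replicate 2 of 20 h SA.

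Nlrc4 encodes the adaptor-like sensor that joins the NAIP proteins once they bind bacterial flagellin or secretion system proteins. It stood at 4.88, 4.39, 4.39 and 4.80 on the 20 h SA arrays, against 5.14, 5.25, 5.29 and 5.51 on the 20 h OA arrays. The fall was -0.69 ± 0.14 (SE, adjusted p = 0.000582), and all SA arrays lay below all OA arrays. The SA values are near the median of all gene values, so the size of this change is uncertain. At 5 h it stood at 4.97, 4.82, 5.27 and 5.33 with SA and at 5.59, 5.08, 5.35 and 5.20 with OA, which overlap (-0.21, 95% interval -0.49 to 0.07). The OA, LPS and vehicle groups had means between 5.30 and 5.32, and LPS differed from vehicle by 0.02 (95% interval -0.29 to 0.32). Within SA, 20 h lay -0.48 below 5 h (adjusted p = 0.018), with overlapping arrays. That call was lost without replicate 2 of 20 h SA (-0.41, adjusted p = 0.0712), replicate 3 of 20 h SA (adjusted p = 0.0776), or replicate 3 (adjusted p = 0.0652) or replicate 4 of 5 h SA (adjusted p = 0.0727).

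Naip2 and Naip5 encode the receptors that bind, in mice, the inner rod protein of bacterial secretion systems and flagellin and hand them to NLRC4. They lie in a cluster of close paralogs, so probes of one may also take up RNA of another. The stretch below is the best-scoring ungapped likeness of their 250-base RefSeq windows, with matches counted for and mismatches against. The stretch was picked for its likeness, so it does not describe the rest of the windows, and it says nothing about the probes. It holds 80 bases, of which 75 are identical (93.8%), and capitals mark the 5 positions that differ. Both lie on the minus strand of GRCm38.p6, at chr13:100202128-100202207 for Naip2 and chr13:100247349-100247428 for Naip5, and are given 5′ to 3′.
Naip2: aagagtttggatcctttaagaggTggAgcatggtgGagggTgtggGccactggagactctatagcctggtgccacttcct
Naip5: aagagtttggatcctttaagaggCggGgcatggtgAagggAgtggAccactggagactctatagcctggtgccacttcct
Naip2 stood at 7.78, 7.91, 7.76 and 7.78 with 20 h SA, against 7.40, 7.32, 7.26 and 7.33 with 20 h OA, a rise of 0.48 ± 0.07 (SE, adjusted p = 2.25e-05) with no overlap. At 5 h it stood at 7.72, 7.69, 7.64 and 7.78 with SA and at 7.54, 7.57, 7.47 and 7.41 with OA. These also do not overlap, and the difference of 0.21 (95% interval 0.06 to 0.36) had an adjusted p of 0.113. LPS raised Naip2 by 0.36 ± 0.08 (SE, adjusted p = 0.00132), at 7.87, 7.89, 7.87 and 8.0, against 7.48, 7.50 and 7.67 with vehicle.

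Naip5 stood at 6.77, 6.82, 6.92 and 6.94 with 5 h SA, against 7.28, 7.38, 7.13 and 7.05 with 5 h OA. The fall of -0.35 ± 0.10 (SE) lay just inside the threshold (adjusted p = 0.0495). It was lost without any of 7 of the 8 arrays compared, each left out in turn, with adjusted p values of up to 0.167 (without replicate 2 of 5 h OA). At 20 h it stood at 7.04, 6.63, 6.96 and 7.13 with SA and at 7.03, 7.36, 7.12 and 7.22 with OA, which overlap (-0.24, 95% interval -0.46 to -0.03, adjusted p = 0.129). Without replicate 2 of 20 h SA, at 6.63, the difference was -0.14 (adjusted p = 0.445). With LPS it stood at 7.10, 7.23, 7.26 and 7.03, against 6.92, 7.03 and 7.13 with vehicle, and did not pass (0.13, 95% interval -0.10 to 0.36).

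Pycard, the gene of the adaptor ASC that links sensors to caspase-1, was lower with SA than with OA at both times. It stood at 8.37, 8.36, 8.15 and 8.39 with 20 h SA, against 8.76, 8.76, 8.81 and 8.90 with 20 h OA. At 5 h it stood at 8.38, 8.41, 8.42 and 8.39 with SA, against 8.99, 8.95, 8.80 and 8.84 with OA. No SA array reached any OA array. The log2 difference was -0.49 ± 0.09 (SE, adjusted p = 0.000139) at 20 h and -0.50 ± 0.09 (SE, adjusted p = 0.000458) at 5 h. The change between the times was 0.00 (95% interval -0.25 to 0.26).

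LPS also lowered Pycard, at 8.17, 8.28, 8.12 and 8.54, against 8.79, 8.81 and 8.79 with vehicle (-0.52 ± 0.09, SE, adjusted p = 0.000135). It was the only one of the 10 genes called lower with LPS in the fit reported here, although Nek7 was called lower as well under 2 of the alternatives. The fall with 5 h SA against vehicle was -0.40 ± 0.09 (SE, adjusted p = 0.0151). It was lost without replicate 1, 2 or 3 of the vehicle (adjusted p = 0.055, 0.0692 and 0.0538). SA and LPS at 5 h did not differ by the test (0.12, 95% interval -0.06 to 0.30, adjusted p = 0.378), although under quantile normalisation SA was higher by 0.24 (adjusted p = 0.0412). OA at 5 h differed from vehicle by 0.10 (95% interval -0.09 to 0.29).

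Casp1 encodes the protease that inflammasomes activate. It stood at 9.40, 9.34, 9.42 and 9.50 with LPS, against 8.82, 8.86 and 8.72 with vehicle, a rise of 0.61 ± 0.09 (SE, adjusted p = 6.95e-06). At 20 h it stood at 8.54, 8.83, 8.52 and 8.61 with SA and at 8.61, 8.64, 8.66 and 8.51 with OA. These overlap, and the difference was 0.02 (95% interval -0.15 to 0.19), or -0.05 without replicate 2 of 20 h SA. At 5 h it stood at 8.74, 8.80, 8.62 and 8.63 with SA and at 8.60, 8.45, 8.45 and 8.39 with OA, a difference of 0.22 (95% interval 0.05 to 0.39) with an adjusted p of 0.131. In the fit with a variance trend and robust moderation that adjusted p was 0.0393.

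Casp4 encodes caspase-11, which in mice binds LPS in the cytosol and cuts gasdermin D without a sensor; its transcript is known to be induced by LPS and interferon. It was higher with SA than with OA at both times. It stood at 8.37, 8.30, 8.45 and 8.50 with 20 h SA, against 7.77, 7.74, 7.78 and 7.63 with 20 h OA. At 5 h it stood at 8.89, 8.69, 8.74 and 8.93 with SA, against 8.09, 7.92, 7.75 and 7.89 with OA. No SA array overlapped any OA array. SA was 1.60-fold above OA at 20 h (0.67 ± 0.09, SE, adjusted p = 2.75e-06) and 1.87-fold above it at 5 h (0.90 ± 0.09, SE, adjusted p = 1.35e-07). The change between the times did not pass (-0.23, 95% interval -0.49 to 0.03, adjusted p = 0.448).

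Against vehicle at 8.28, 8.19 and 8.19, Casp4 rose by 0.59 ± 0.10 (SE, adjusted p = 0.000308) with 5 h SA. With 5 h OA it differed by -0.31 (95% interval -0.51 to -0.11, adjusted p = 0.512), and every OA array lay below every vehicle array. With 20 h OA it was -0.49 ± 0.10 (SE, adjusted p = 0.00187) below vehicle, and with 20 h SA it was 0.19 above it (adjusted p = 0.235). The 20 h OA level was thus under that of the 5 h vehicle. Of the 10 genes, 5 were called for 20 h SA against vehicle (Naip2 higher, and Nlrp3, Nlrc4, Pycard and Nek7 lower), where 15.9% of all genes were called (7.86% rose and 8.02% fell). Without replicate 2 of 20 h SA, Naip2 (adjusted p = 0.0701) and Nek7 (adjusted p = 0.0655) were not called and Casp1 was, as lower (adjusted p = 0.0485). For 20 h OA against vehicle 3 were called, all lower (Nlrp3, Casp4 and Aim2), where 4.70% of all genes were called (2.59% rose and 2.11% fell). LPS gave 9.82, 9.57, 9.90 and 9.83, a rise of 1.56 ± 0.10 (SE, adjusted p = 2.80e-12), or 2.94-fold. SA at 5 h lay 1.95-fold below LPS (adjusted p = 4.65e-09).

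The 250 bases before a RefSeq start of Casp4 are shown for comparison with Nlrp3, since these were the 2 genes that rose with 5 h SA. The window is GRCm38.p6 chr9:5308599-5308848, plus strand, 5′ to 3′, with matches to the same kappaB-type motif in capitals.
Casp4: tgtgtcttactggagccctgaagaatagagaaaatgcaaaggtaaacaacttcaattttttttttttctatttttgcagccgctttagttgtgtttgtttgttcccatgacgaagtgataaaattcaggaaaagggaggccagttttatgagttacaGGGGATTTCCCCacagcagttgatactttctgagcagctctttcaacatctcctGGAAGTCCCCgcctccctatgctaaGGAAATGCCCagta
It held 5 matches, of which 3 overlap in the first run in capitals, beginning 93, 92 and 91 bases before the start, and the others begin at 39 and 14. Of the 10 genes, 9 had a RefSeq window, and 5 of the 9 held the motif (Nlrp3, Naip5, Casp1, Casp4 and Nek7). Counted by window it was 6 of 11, near the 45.8% of all RefSeq windows that hold it. Of the genes that held it, Nlrp3, Casp1 and Casp4 rose with LPS and Nek7 and Naip5 did not. Of those without it, Aim2 and Naip2 rose and Nlrc4 and Pycard did not. Gsdmd, which rose, had no window. The part of the motif in these changes was not tested. No window of the 9 held the ISRE-type motif (GAAA, any 2 bases, then GAAA), the GAS-type TTCNNNGAA or the AP-1-type TGANTCA, which 2.98%, 7.02% and 6.75% of all windows hold. Absence of the letters in 250 bases says nothing about the factors.

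Gsdmd encodes gasdermin D, which forms the membrane pore once cut by caspase-1 or caspase-11. It stood at 7.62, 7.37, 7.56 and 7.64 with LPS, against 6.82, 7.06 and 6.75 with vehicle, a rise of 0.67 ± 0.13 (SE, adjusted p = 0.000229). No other group was separated from its neighbours. At 20 h it stood at 6.86, 6.23, 6.68 and 6.86 with SA and at 6.86, 6.78, 7.06 and 6.92 with OA (-0.25, 95% interval -0.49 to -0.0044, adjusted p = 0.184). The lowest SA value was that of replicate 2, and without it the difference was -0.10 (adjusted p = 0.628). At 5 h it stood at 6.68, 6.77, 6.65 and 6.95 with SA and at 6.95, 6.82, 6.86 and 6.89 with OA (-0.12, 95% interval -0.36 to 0.12, adjusted p = 0.693). With 5 h SA it lay 0.79 ± 0.12 (SE) below LPS (adjusted p = 9.58e-06).

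**Figure D2:**
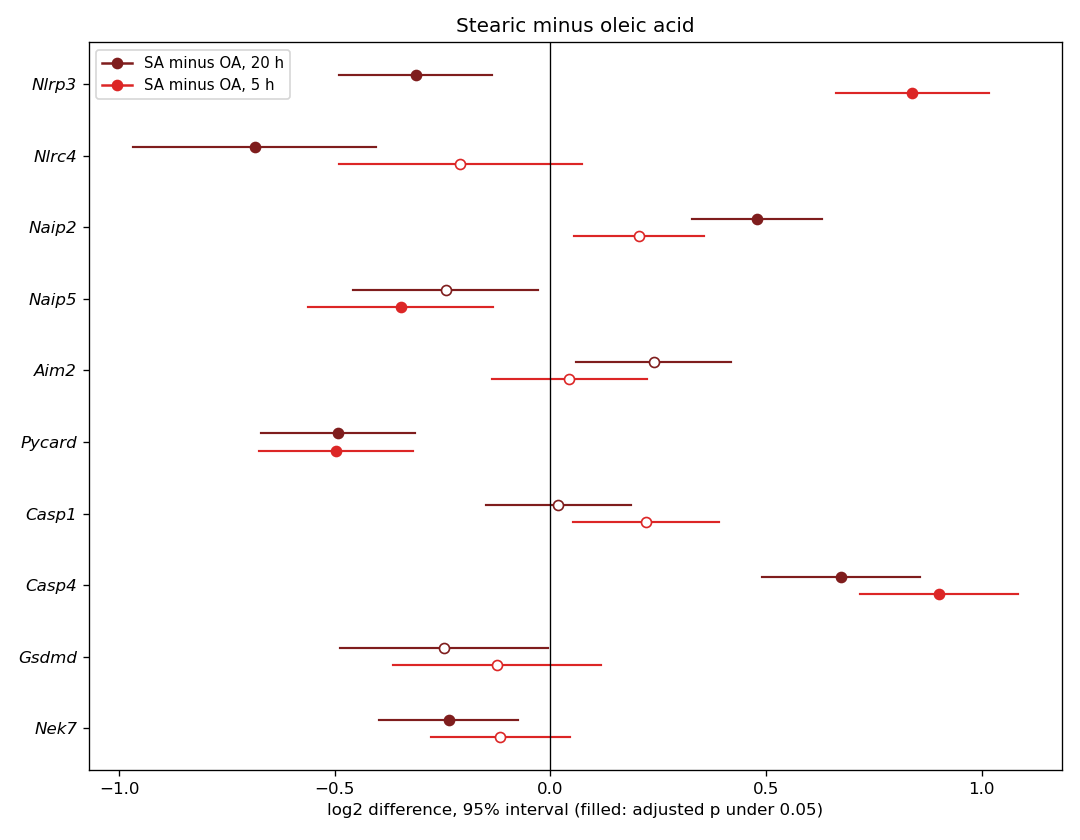
Log2 difference of SA minus OA (horizontal axis) with its 95% interval for each of the 10 genes at 20 h and 5 h, 4 arrays a group; filled points have an adjusted p under 0.05 in limma. Nlrp3 lies at -0.31 at 20 h and 0.84 at 5 h, Pycard at -0.49 and -0.50, and Casp4 at 0.67 and 0.90.

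**Figure D3:**
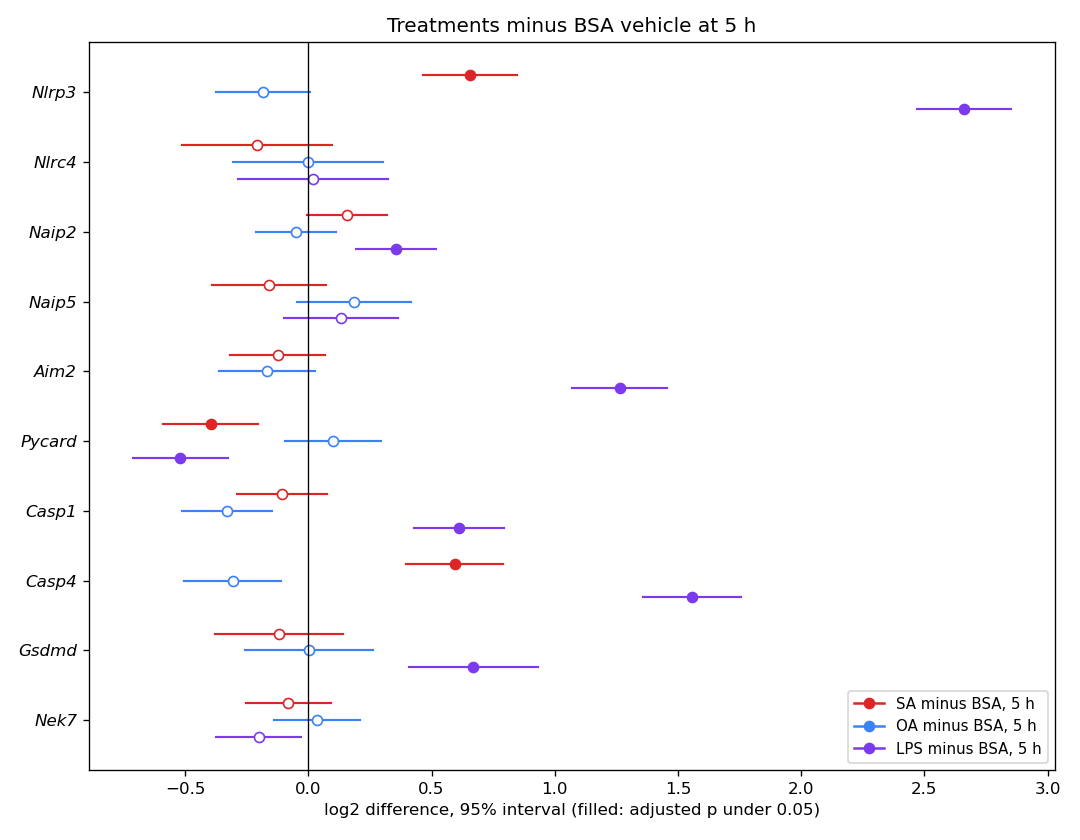
Log2 difference from the 5 h BSA vehicle (horizontal axis) with its 95% interval after 5 h of SA, OA or LPS, with 4 arrays a treatment and 3 of vehicle; filled points have an adjusted p under 0.05. With LPS 6 genes lie right of 0 as filled points and Pycard left of it, with SA 3 points are filled, and with OA none is.

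The genes whose pattern over the 6 groups was most like that of a member were sought for the 3 members whose group means spanned at least 1 on the log2 scale. Likeness was the root mean square difference between group means, each centred on its mean over the groups. Nearest to Nlrp3 were the adhesion molecule gene Icam1 (0.20 apart), AW112010 (0.27) and the chemokine gene Ccl4 (0.36). Nearest to Casp4 were Rhbdf2 (0.07), Dcbld2 (0.08) and Maff (0.11). Nearest to Aim2 were Epha4 (0.03), Adamts4 (0.06) and Xkr8 (0.08). The same arrays underlie all of these values, and a like pattern is a description of them.

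**Figure D4:**
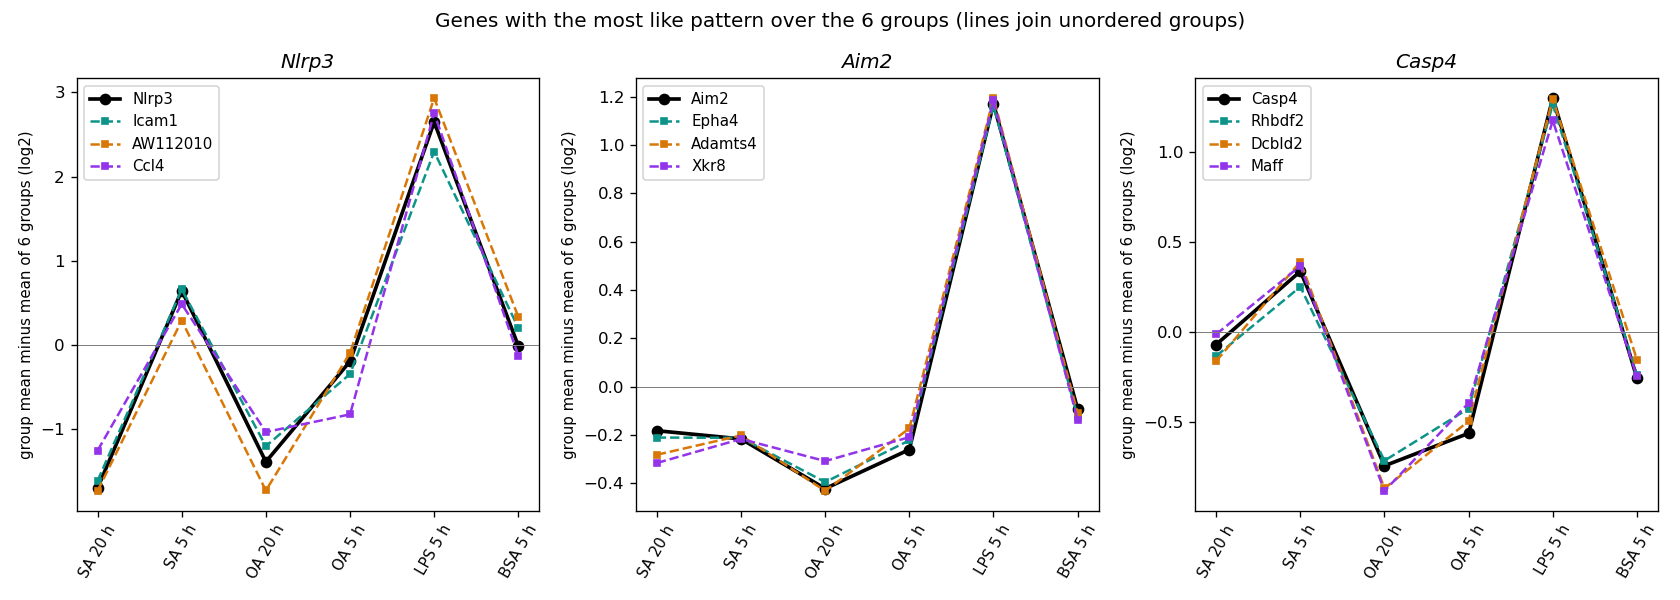
Group means minus the mean over the 6 groups (vertical axis, log2) for Nlrp3, Aim2 and Casp4 (black) and, for each, the 3 genes of most like pattern (dashed); lines join groups that have no order. Nlrp3 and Casp4 share a high 5 h SA value, 0.65 and 0.34 above their own mean, while Aim2 is above its mean with LPS alone.

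Other genes of the pathway were taken from 4 lists, of which 63 of 75 genes were measured by a probe set with a single symbol. Against vehicle, 27 rose and 11 fell with LPS (median log2 difference 0.14, against -0.02 over all genes), 7 rose and 3 fell with 5 h SA, and none was called with 5 h OA. Between SA and OA, 11 rose and 4 fell at 5 h (median 0.03, against 0.01 over all genes), and 12 rose and 15 fell at 20 h (median -0.04, against 0.03 over all genes). The counts here and in the lists below stand beside these shares of all genes. With LPS 9.22% rose and 13.2% fell, with 5 h SA 1.94% and 1.39%, and with 5 h OA 0.0201% and 0.0502%. Between SA and OA, 3.30% rose and 2.37% fell at 5 h, and 7.72% rose and 8.95% fell at 20 h.

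Among other sensors, 4 of 13 fell and none rose with SA against OA at 20 h, and 2 fell at 5 h. Nlrp1b, a sensor of bacterial proteases, averaged 4.64 ± 0.14 with 20 h SA and 6.19 ± 0.14 with 20 h OA (SD, n = 4 each), a log2 difference of -1.54 ± 0.11 (SE, adjusted p = 9.62e-11). Nlrp1c-ps, listed as its pseudogene neighbour, changed by -1.47 ± 0.12 (SE) and its probes may take up RNA of both. At 5 h the differences were -0.57 for Nlrp1b and -0.75 for Nlrp1c-ps. Both also fell with LPS, by 1.32 and 1.56 on the log2 scale, where their LPS levels of 4.19 and 4.13 lay below the median of all gene values, so the sizes are uncertain. In that respect they moved like Pycard and unlike Nlrp3, Aim2 and Casp4.

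Among 26 regulators, 5 rose and 4 fell with SA against OA at 20 h and 7 rose and 1 fell at 5 h. Panx1, a membrane channel gene, averaged 7.69 ± 0.10 with 20 h SA and 6.21 ± 0.10 with 20 h OA (SD, n = 4 each), a rise of 1.48 ± 0.10 (SE, adjusted p = 3.00e-11). Its 5 h means were 6.97 ± 0.15 with SA and 6.07 ± 0.18 with OA (SD, n = 4 each). Irf1, a transcription factor of the interferon response, rose by 0.81 ± 0.11 (SE) at 20 h and 1.72 ± 0.11 (SE) at 5 h. Gbp5, an interferon-inducible GTPase that promotes inflammasome assembly, rose by 1.35 ± 0.16 (SE) at 5 h, where its OA level of 3.69 lay below the median of all gene values. Irf2, a transcription factor known to maintain Gsdmd transcription in mice, was lower with SA by -0.53 ± 0.08 (SE, adjusted p = 7.72e-05) at 5 h. Its 20 h means were 8.26 ± 0.05 with SA and 8.71 ± 0.09 with OA (SD, n = 4 each). With LPS, 13 regulators rose and 4 fell, with Gbp5 higher by 5.70 ± 0.17 (SE) and the phosphatase gene Ptpn22 changed by -1.14 ± 0.13 (SE).

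Among 17 other caspases and executioners, 5 rose and 3 fell with SA against OA at 20 h, and 3 rose and 1 fell at 5 h. Of 7 genes listed as caspase-1 substrates and related cytokines, 2 rose and 4 fell at 20 h, and 1 rose at 5 h. These were Il1b, Il18, Il1a, Il1rn, Il18bp, Il33 and Hmgb1, so the list is not limited to cytokines that caspase-1 cuts. Il1b, whose product caspase-1 cuts, averaged 3.25 ± 0.27 with 20 h SA and 4.58 ± 0.30 with 20 h OA (SD, n = 4 each), a change of -1.33 ± 0.15 (SE, adjusted p = 2.27e-07) of uncertain size, since the SA level lay below the median of all gene values. It averaged 10.71 ± 0.17 with LPS (SD, n = 4) and 6.16 ± 0.20 with vehicle (SD, n = 3). At 5 h it averaged 5.48 ± 0.22 with SA and 5.80 ± 0.15 with OA (SD, n = 4 each), both below the vehicle mean. With 5 h SA against vehicle, 1 of the 7 genes of this list fell and none rose, where 1.94% of all genes rose and 1.39% fell. Il1a averaged 3.97 ± 0.45 with 20 h SA and 2.38 ± 0.34 with 20 h OA (SD, n = 4 each), both below the median of all gene values.

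The last 2 lists cover the wider response around these genes. Of 19 genes of the NF-kB response, 17 rose and none fell with SA against OA at 5 h (median 0.70), and 9 rose and 2 fell at 20 h (median 0.22). Of 16 genes of the interferon response, 11 rose and none fell at 5 h (median 0.53), and 5 rose and 1 fell at 20 h (median 0.20). Over all genes, 3.30% rose and 2.37% fell at 5 h (median 0.01), and 7.72% rose and 8.95% fell at 20 h (median 0.03). With LPS all 19 and all 16 rose, with medians of 1.97 and 3.92, where 9.22% of all genes rose (median -0.02). With 5 h SA against vehicle, 13 of 19 and 5 of 16 rose, and none fell, where 1.94% of all genes rose and 1.39% fell.

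**Figure D5:**
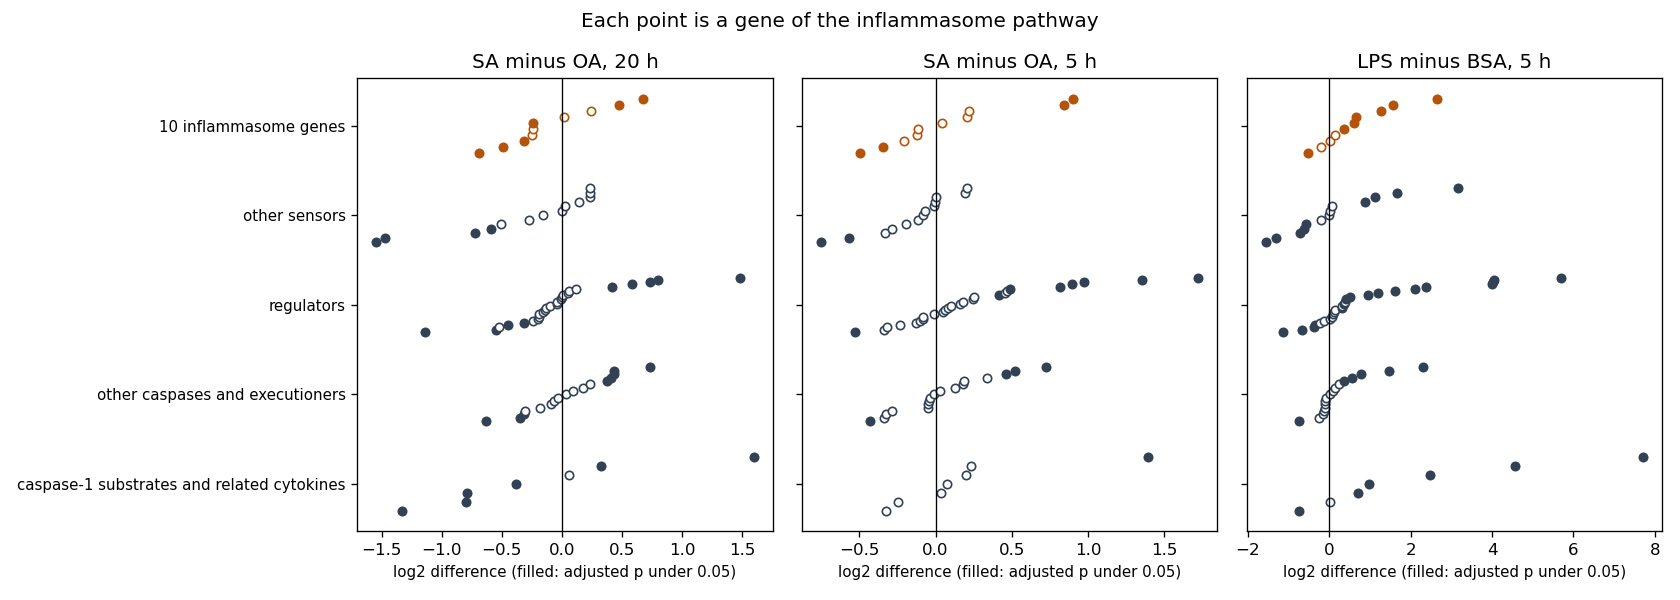
Log2 difference (horizontal axis, range differs between panels) of the 10 inflammasome genes and of 63 other genes in 4 lists for SA minus OA at 20 h, SA minus OA at 5 h and LPS minus BSA at 5 h; each point is a gene, filled where the adjusted p is under 0.05. Among other sensors the filled points all lie left of 0 between the acids, and lie on both sides with LPS.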

How the data were processed

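Per the submitters' processing notes, the authors made the deposited log2 values, 1 for each probe set, with RMA, a method that corrects background, puts the arrays on a common scale and merges the probes of a set. Limma is named there too; versions and genome build are not given in the sources used here. The table holds 35556 probe sets on 23 arrays; 21789 carried 1 symbol, and the one of highest mean per gene gave 19938 genes. Means per group were fitted with limma 3.58.1 in R 4.3.3, with all arrays in 1 fit, empirical Bayes moderation and two-sided p-values adjusted over all genes by the Benjamini-Hochberg method, separately for each of 11 comparisons. Intervals are 95%. Replicates are wells in the labels and biological replicates in the series text, so the p-values reflect only how far these samples differed, a spread that may be technical. Precision is limited by the number of arrays, and no scan date was given to test as a batch. The 10 genes, the lists, the motifs and the rule for naming genes (all 10 genes, and the 3 largest rises and falls among called pathway genes in each of 3 comparisons) were chosen with earlier results of these data known. The fit was tested on simulated data. Promoter sequences are RefSeq's, of GRCm38.p6. Figures were drawn with matplotlib 3.10.9. Same-numbered arrays of different groups did not vary together (median correlation of their deviations 0.017, with 7 of 55 pairs over 0.1), so replicate numbers were not used as a block.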

Additional observations from a re-analysis of the deposited data

Results flagged for a closer look

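The SA effect on Nlrp3 relative to OA differed between the times in the interaction test, with a change of -1.15 on the log2 scale, 20 h minus 5 h.

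In 50 sets of 4 arrays (10 genes in 5 groups), 3 had 1 array far from the other 3, and chance gives this in about 1 set in 20. Naip2 stood at 7.91 on replicate 2 of 20 h SA, against 7.76 to 7.78 on the others. Naip2 stood at 8.0 on replicate 4 of LPS, against 7.87 to 7.89 on the others. Pycard stood at 8.15 on replicate 3 of 20 h SA, against 8.36 to 8.39 on the others.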

How the results depend on the processing

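Of 110 member results (10 genes in 11 comparisons), 39 were called, and 30 of these were called under all 10 other settings and with each array left out; none changed sign. The cause of the changes was not tested. Of 2010 values under alternatives, 56 changed sign, in 19 results, and none of these was called in either fit (largest difference 0.123). The numbers called with each array left out were 4 to 6 for SA against OA at 20 h, 3 to 4 at 5 h, 1 for the change between times, 2 to 3 for SA against vehicle at 5 h, 0 for OA and 7 for LPS. They were 5 to 6 for SA against LPS, 2 to 3 for SA and 1 for OA at 20 h against 5 h, and 3 to 5 for 20 h SA and 2 to 3 for 20 h OA against vehicle. For 20 h SA against vehicle, 5 were called, but 3 in a fit of the compared groups alone (Naip2 and Nek7 lost) and 3 without replicate 2 of the vehicle. Replicate numbers gave little sign of pairing, and 9 of the 23 arrays correlated best with their own number. With a replicate block, SA against OA gave 5 calls among the 10 at 20 h (Nek7 lost, adjusted p = 0.0547). At 5 h it gave 3 (Naip5 lost, adjusted p = 0.0723). Aim2 at 20 h against vehicle with OA (adjusted p = 0.0411) reached 0.266 without replicate 2 of the vehicle. Over all genes, a fit of the compared groups alone called 660, against 1131 for SA against OA at 5 h, 373 against 664 for SA against vehicle at 5 h, and 7 against 14 for OA. A variance trend gave 29 for OA against vehicle, and array weights 1537, against 937, for 20 h OA against vehicle. Without replicate 2 of the vehicle the numbers were 389 for SA and 9 for OA at 5 h, and without replicate 3 it was 7 for OA. Signal over background was not given, so levels near the median of all gene values, such as Nlrc4 with 20 h SA, are of uncertain size.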
